A study of Capra hircus with 12 samples.

Results

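miR-221 and miR-222 were described in secondary hair follicles (SHFs) of the cashmere goat through the annual cycle of fiber growth. Every name that carried miR-221 or miR-222 was taken, with both arms of the hairpin where they were listed. This gave 3 of the 376 listed miRNAs, namely chi-miR-221-3p, chi-miR-221-5p and chi-miR-222-3p (chi for Capra hircus), from 2 precursors. The prefix is left out from here on. All 3 passed the filter on low values that left 300 miRNAs for testing. The tables used here held no row for miR-222-5p.

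Small RNA was sequenced from SHFs that had been dissected from scapular skin of untreated Liaoning cashmere goats, all 1.5 years old. The 12 libraries comprised 1 female and 1 male library in each of 6 months. February and March formed telogen, the resting phase (4 libraries), May was early anagen (2 libraries), September was mid-anagen (2 libraries), and November and December formed catagen, the regression phase (4 libraries). How the goats of a time point were combined into libraries was not given in the sources used here, so p-values measure only the spread between these libraries.

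In mammals, the miR-221 and miR-222 hairpins lie close together on the X chromosome, and their 3p arms carry the same seed, the short stretch near the 5′ end that pairs with target messages. Known targets of the pair are CDKN1B, which encodes the cell cycle inhibitor p27, and KIT, the stem cell factor receptor that melanocytes depend on. Hair follicles pass through bursts of matrix cell division in anagen and rest in telogen, and follicle melanocytes are active in anagen.

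The totals ranged from 3135292 to 5788032 counts per library, and 3 counts corresponded to between 0.518 and 0.957 TPM, the share of a library's miRNA counts on the authors' deposited scale. The libraries differed in composition along the cycle, with TMM factors, the edgeR scaling that offsets such differences, of 1.25 and 1.29 in May and 0.813 to 0.916 in catagen. Levels of the 3 members are therefore given both as the deposited TPM and as CPM after TMM scaling. Sums of marker miRNAs are given in TPM only. Of the marker miRNAs of follicle tissue, 7 of 8 epidermal and 5 of 5 mesenchymal precursors were listed, and their summed levels were 57143 to 96872 and 118318 to 148888 TPM. Summed levels of the erythrocyte list were 5.41 to 115 TPM, of the leukocyte list 393 to 664 TPM and of the muscle list 1902 to 3614 TPM, with 2 of 3, 3 of 4 and 5 of 5 precursors listed. The single endothelial precursor was also listed, at 8819 to 12699 TPM, and no listed marker was at 0 in all 12 libraries. Some of these levels moved with the phases, and are given beside the comparisons they touch. The part of other cell types in the values below was not tested, and in such bulk samples fewer cells of a type and less RNA per cell cannot be told apart.

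miR-221-3p was the most abundant of the 3, with a mean of 820.4 TPM over the 12 libraries and rank 65 of the 376 miRNAs. It stood between miR-140-3p at 852 TPM and miR-320-3p at 765 TPM. miR-222-3p had a mean of 279 TPM and rank 91, between miR-30e-3p at 287 TPM and miR-127-3p at 239 TPM. miR-221-5p, the minor arm of its hairpin, had a mean of 48.4 TPM and rank 154, between miR-3958-3p at 49.5 TPM and miR-214-3p at 47.6 TPM. The 3 ranges over libraries did not overlap each other, so the order of levels was the same in every library. The counts behind these values ran from 2132 to 4619 for miR-221-3p, from 913 to 1508 for miR-222-3p and up to 334 for miR-221-5p.

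In TPM, miR-221-3p stood at 784 in the female and 854 in the male library of February, and at 876 and 1007 in March. It stood at 1117 and 1081 in May, at 569 and 742 in September, at 617 and 614 in November and at 865 and 719.9 in December. Both May libraries were above all other libraries on this scale. The group means were 880.1 ± 93.2 TPM in telogen (SD, n = 4), 1099 ± 25.1 in May (n = 2), 656 ± 122 in September (n = 2) and 704 ± 118 in catagen (n = 4). After TMM scaling, the same libraries read 779 and 746 CPM in February, 842 and 817 in March, 894 and 840.4 in May, 672 and 814 in September, 759 and 725 in November, and 944 and 833 in December. On this scale the highest was the female library of December, the lowest the female library of September, and the May libraries lay within the range of the others.

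miR-222-3p followed a similar course in TPM. It stood at 255 in both libraries of February, at 272 in the female and 300.5 in the male library of March, and at 365 and 389 in May. It stood at 242 and 217 in September, at 264 and 249.7 in November and at 270.3 and 269.7 in December. The May libraries were again the highest, with the same limit as for miR-221-3p. After TMM scaling, the values were 254 and 222.8 CPM in February, 262 and 244 in March, 292 and 303 in May, 286 and 238 in September, 325 and 295 in November, and 295 and 312 in December. Here all 4 catagen libraries, at 295 to 325 CPM, lay above all 4 telogen libraries, at 222.8 to 262 CPM. The share of all miRNAs that separate these phases in this way was not computed. Between these phases, 35.0% of the 300 miRNAs had an edgeR adjusted p under 0.05 at any fold.

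miR-221-5p differed in course from both 3p arms in TPM, with its 3 highest libraries in telogen. It stood at 56.0 in the female and 48.7 in the male library of February, at 65.6 and 54.7 in March and at 50.3 and 41.1 in May. It stood at 42.6 and 46.7 in September, at 30.7 and 45.6 in November and at 51.6 and 47.7 in December. After TMM scaling, telogen averaged 51.4 ± 9.70 CPM (SD, n = 4), May 36.1 ± 5.86 (n = 2), September 50.7 ± 0.698 (n = 2) and catagen 50.8 ± 8.74 (n = 4). The May libraries, at 40.3 and 32.0 CPM, were low, and the female library of November was also low at 37.7 CPM.

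**Figure D1:**
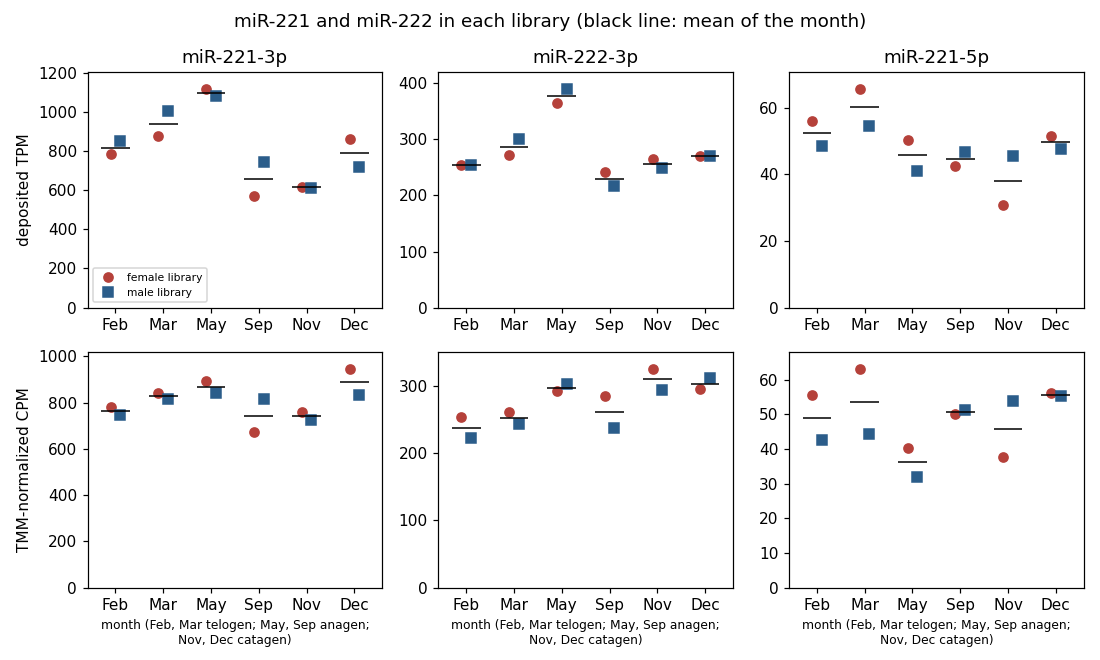
Levels of miR-221-3p, miR-222-3p and miR-221-5p in each of the 12 libraries by month, as deposited TPM in the upper row and TMM-normalized CPM in the lower row; circles are female libraries, squares male libraries and black lines the mean of a month. The May libraries stand highest for both 3p arms in TPM (1117 and 1081 for miR-221-3p), while after TMM scaling they lie within the range of the other libraries. How many of all miRNAs stand highest in May in TPM was not counted.

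The comparison of phases asked which miRNAs changed between parts of the hair cycle, consecutive or not. None of the 3 changed 2-fold with an adjusted p under 0.05 (edgeR quasi-likelihood test with Benjamini-Hochberg adjustment) in any of 6 phase comparisons, and DESeq2 called none of them either. The same rule called 10.7% of all 300 miRNAs from catagen to telogen, 2.33% from telogen to May, 18.3% from May to September, 16.7% from May to catagen, 9.33% from telogen to September and 0% from September to catagen. In the last of these, 23 of the 300 had an unadjusted p under 0.05 and DESeq2 called 1. The comparisons share libraries, and so are not independent of each other.

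From May to September, where the background of calls was highest, miR-221-3p had a log2 fold change of -0.22 (SE 0.16, edgeR adjusted p = 0.309). miR-222-3p had -0.18 (SE 0.15, edgeR adjusted p = 0.379), and miR-221-5p had 0.49 (SE 0.25, edgeR adjusted p = 0.157). The 95% intervals were -0.58 to 0.13, -0.52 to 0.15 and -0.06 to 1.04. With TMM, a 2-fold change of either 3p arm thus lay outside its interval, whereas the interval of miR-221-5p reached past a 2-fold rise. No intervals are given for library totals, where the estimates of both 3p arms lay farther from 0. Between the same months the summed muscle markers were at 2113 to 2745 TPM in May and 3389 to 3461 in September, the epidermal markers at 81457 to 88692 and 57143 to 73019, and the mesenchymal markers at 136171 to 140589 and 140852 to 141278. In TPM these 3 ranges lay apart between the months, the mesenchymal ones only narrowly, while the endothelial, erythrocyte, leukocyte and melanocyte ranges overlapped. With 2 libraries a month, ranges can lie apart without a difference between months, and the share over all miRNAs was not computed. The sums are in TPM only, whereas the fold changes above are after TMM scaling. TMM factors were 1.25 and 1.29 in May and 0.848 and 0.912 in September. The marker ranges may therefore lie otherwise after TMM scaling, which was not computed for them. The part of these cell types in the values of the members was not tested.

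With library totals in place of TMM, the same step read -0.74 for miR-221-3p (edgeR adjusted p = 0.0126), -0.72 for miR-222-3p (edgeR adjusted p = 0.00441) and -0.04 for miR-221-5p (edgeR adjusted p = 0.926). The median log2 fold change of all 300 miRNAs moved with the scaling, from 0.07 with TMM to -0.46 with library totals. Relative to that median, miR-221-3p was at -0.29 under both scalings, miR-222-3p at -0.25 with TMM and -0.26 with library totals, and miR-221-5p at 0.42 under both. The direction of miR-221-5p against 0 thus flipped with the scaling, and its position among all miRNAs did not.

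From telogen to May, miR-221-5p had a log2 fold change of -0.51 (SE 0.22, edgeR adjusted p = 0.156, unadjusted p = 0.0421). miR-221-3p had 0.12 (SE 0.14, edgeR adjusted p = 0.578) and miR-222-3p had 0.28 (SE 0.13, edgeR adjusted p = 0.188). The 5p arm was the only one of the 3 with a negative estimate, and it stayed negative with library totals, at -0.30. The summed leukocyte markers were at 442 to 664 TPM in telogen and 416 to 434 in May, and their part was not tested. With so few libraries, such ranges can lie apart without a difference between phases. The share over all miRNAs and the sums after TMM scaling were not computed. From May to catagen, miR-221-5p had 0.49 (SE 0.22, edgeR adjusted p = 0.0969), against -0.09 for miR-221-3p and 0.04 for miR-222-3p. With library totals these read -0.06, -0.64 and -0.52, and the values of both 3p arms then had edgeR adjusted p = 0.00853 and 0.00772.

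miR-222-3p was lower in telogen than in catagen by 1.25-fold, with a log2 fold change of -0.32 (SE 0.11, edgeR adjusted p = 0.0385). This was under the 2-fold limit. Of all 300 miRNAs, 35.0% had an adjusted p under 0.05 here and 21.0% had one with a lower level in telogen. An exact permutation test of 4 against 4 libraries, two-sided, gave p = 0.0286, the smallest that it can give. It restates the full separation of these libraries given above. The adjusted p was 0.0588 with DESeq2 and 0.113 with RLE scaling in edgeR, and with library totals the difference was 0.04 (edgeR adjusted p = 0.782), with the median of all miRNAs at 0.35. The adjusted p was under 0.05 in 3 of 12 fits that each left out 1 library and above it in the other 9, with values from 0.0317 to 0.0971. It was 0.0925 with no filter on low counts and 0.0668 with only these phases in the fit. The summed erythrocyte markers were at 27.9 to 115 TPM in telogen and 5.41 to 26.4 in catagen, and their part was not tested. For these sums too, the share over all miRNAs and the values after TMM scaling were not computed. For miR-221-3p the log2 fold change was -0.03 (SE 0.11, exact permutation p = 0.829), with 0.06 under RLE and 0.32 under library totals. For miR-221-5p it was 0.02 (SE 0.18, exact permutation p = 0.943), with 0.36 under library totals.

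A single test of any difference among the 4 groups gave edgeR adjusted p = 0.629 for miR-221-3p, 0.223 for miR-221-5p and 0.0953 for miR-222-3p. They ranked 281, 227 and 172 of 300 by p, and 47.3% of the 300 passed this test. With library totals, the adjusted p was 0.0169 for miR-221-3p, 0.00976 for miR-222-3p and 0.298 for miR-221-5p. Between adjacent months none of the 3 was called by edgeR or DESeq2, where the edgeR background was 17.3% from May to September, 1.33% from December to February and 0% at the other 4 steps. At those 4 steps, the number of miRNAs with an unadjusted p under 0.05 was 15 for February against March, 52 for March against May, 13 for September against November and 10 for November against December. The largest estimate for a member was -0.57 for miR-221-5p from March to May (SE 0.26, edgeR adjusted p = 0.299).

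**Figure D2:**
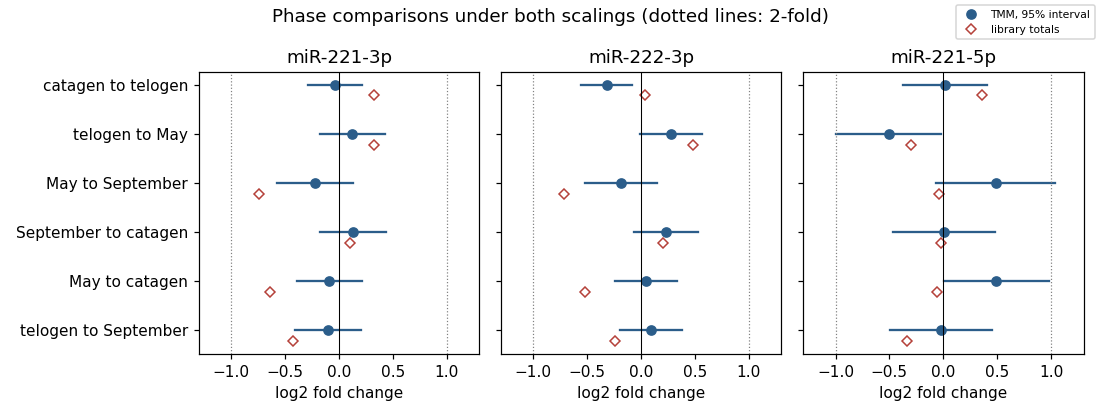
Log2 fold change of each miRNA in the 6 phase comparisons; filled circles with bars are TMM estimates with 95% intervals, open diamonds are estimates with library totals and dotted lines mark 2-fold. With TMM no estimate reaches 2-fold, and with library totals both 3p arms move to -0.74 and -0.72 from May to September.

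Among all tested miRNAs, the 3p arms were among the least variable through the year after TMM scaling. The SD of log2 CPM over 12 libraries was 0.135 for miR-221-3p, rank 2 of 300 from the smallest, and the highest library was 1.40 times the lowest. It was 0.172 for miR-222-3p (rank 13, 1.46 times) and 0.285 for miR-221-5p (rank 58, 1.96 times), against a median of 0.431. Counting error shrinks with abundance, so each was also set beside miRNAs within 2-fold of its mean TPM. Among those, miR-221-3p ranked 1 of 32, miR-222-3p ranked 2 of 33 and miR-221-5p ranked 9 of 55.

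This rank depended on the scaling. With RLE, the SDs were 0.136, 0.151 and 0.293, at ranks 2, 5 and 66. With library totals they were 0.321, 0.240 and 0.269, at ranks 80, 36 and 53, and miR-221-3p was 15 of 32 among miRNAs of like abundance. On that scale the highest library was 1.96 times the lowest for miR-221-3p and 1.80 times for miR-222-3p.

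**Figure D3:**
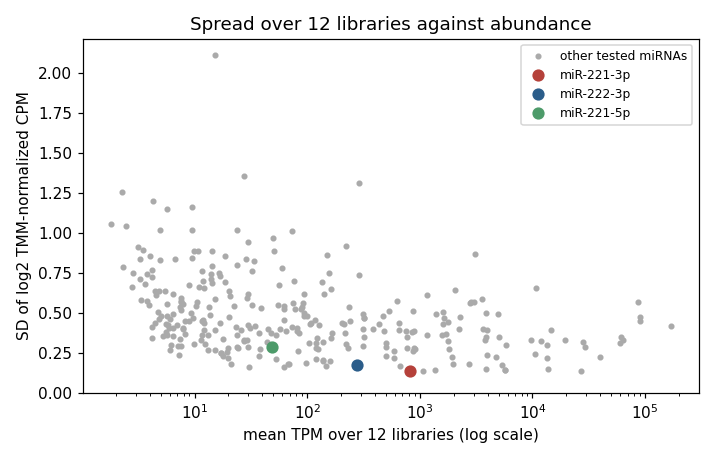
Spread of each tested miRNA, as the SD of log2 TMM-normalized CPM over the 12 libraries, against its mean TPM on a log axis; grey points are the other tested miRNAs. miR-221-3p (0.135) and miR-222-3p (0.172) lie at the lower edge of the points, and miR-221-5p (0.285) lies higher.

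The ratio of the arms of the miR-221 hairpin is free of the scaling, since both come from the same library. The 3p arm outnumbered the 5p arm 14.0 times in the female and 17.6 times in the male library of February, and 13.4 and 18.4 times in March. The ratio was 22.2 and 26.3 in May, 13.4 and 15.9 in September, 20.1 and 13.5 in November and 16.8 and 15.1 in December. Both May libraries lay above the other 10, which spanned 13.4 to 20.1. May was singled out after its values were seen, and the May libraries fell outside the range of the other libraries for 23.0% of the 87 hairpins tested.

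The group means of the arm ratio were 15.8 ± 2.52 in telogen (SD, n = 4), 24.2 ± 2.88 in May (n = 2), 14.6 ± 1.78 in September (n = 2) and 16.4 ± 2.85 in catagen (n = 4). The 5p arm made up 3.67% of the miR-221 counts in the male library of May (95% Wilson interval 3.09 to 4.34%) and 6.96% in the female library of March (6.28 to 7.72%). These intervals cover counting error only. In limma, the log2 ratio differed by 0.62 from telogen to May (SE 0.26, limma adjusted p = 0.0949), differed by -0.73 from May to September (SE 0.30, limma adjusted p = 0.0658) and by -0.58 from May to catagen (SE 0.26, limma adjusted p = 0.0816). None of these passed 0.05, while 11.5%, 37.9% and 41.4% of the 87 hairpins did. Of 112 hairpins with both arms listed, 87 had enough counts to be tested, and miR-221 stood at the 78.2 percentile of these for the mean log2 ratio of 3p to 5p.

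The ratio of miR-221-3p to miR-222-3p compares both hairpins of the cluster within a library. It averaged 3.25 ± 0.133 in telogen (SD, n = 4), 2.92 ± 0.203 in May (n = 2), 2.89 ± 0.759 in September (n = 2) and 2.67 ± 0.382 in catagen (n = 4). The 4 telogen libraries lay within 3.07 to 3.35. September was split between 2.35 in the female and 3.42 in the male library, and the November libraries, at 2.34 and 2.46, were low. The log2 ratio was 1.70 in telogen and 1.40 in catagen, a difference of 0.29 (exact permutation test of 4 against 4, two-sided, p = 0.0571).

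**Figure D4:**
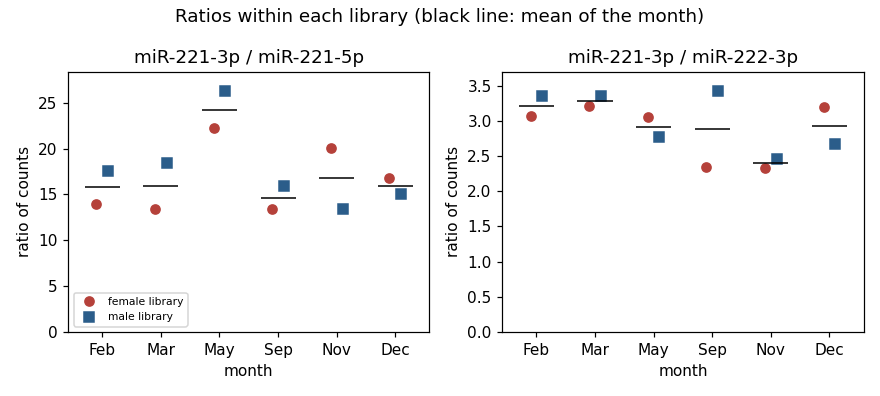
Ratio of counts within each library by month, for miR-221-3p to miR-221-5p at left and miR-221-3p to miR-222-3p at right; circles are female libraries, squares male libraries and black lines the mean of a month. At left both May libraries (22.2 and 26.3) stand above the others, and at right the telogen libraries lie close together (3.07 to 3.35).

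Whether the cluster moved as a unit was asked through the relation of its members across the 12 libraries. In log2 TMM CPM, miR-221-3p and miR-222-3p had Pearson r = 0.12 (permutation p = 0.702, adjusted p = 0.948 over 3 relations) and Spearman rho = 0.22 (permutation p = 0.482, adjusted p = 0.655). Without the 2 libraries farthest from the median of miR-221-3p, r was 0.14, and with each group centred on its own mean it was -0.28. The arms of miR-221 had r = 0.02 and rho = 0.20 (permutation p = 0.948 and 0.548, adjusted p = 0.948 and 0.655), with r = -0.11 without 2 libraries and 0.45 within groups. miR-221-5p and miR-222-3p had r = -0.20 and rho = -0.15 (permutation p = 0.551 and 0.655, adjusted p = 0.948 and 0.655), with r = 0.29 without 2 libraries and 0.07 within groups.

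On the TPM scale, miR-221-3p and miR-222-3p had r = 0.77 (permutation p = 0.00222, adjusted p = 0.00666) and rho = 0.83 (permutation p = 0.00152, adjusted p = 0.00456). Without the 2 farthest libraries r was 0.69, and within groups it was 0.29. The relation of the 3p arms thus had an adjusted p under 0.05 in TPM and not in TMM CPM. Its test in TPM was chosen after seeing the data. The 5 miRNAs most like miR-221-3p in TMM CPM, named below, had r of 0.742 to 0.787 with it there and 0.899 to 0.972 in TPM. How many of all miRNAs reach 0.77 with miR-221-3p in TPM was not computed. The TMM factors, highest in May, differ between these scales. Their part in the relation was not tested. In the RefSeq annotation of another goat assembly than the one the authors used (ARS1.2), no annotated gene stood between the hairpins. That annotation gave 137 pairs of tested miRNAs within 10 kb of each other, whose median r in TMM CPM was 0.617. Many of these pairs share 1 chromosome, and outside it the median r was 0.350 over 52 pairs, of which 18 had a lower r than miR-221-3p with miR-222-3p.

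The miRNAs most like each member were listed by Pearson r in TMM CPM over the 12 libraries, as a description. For miR-221-3p they were the candidate novel_100 (r = 0.787), miR-19a (0.776), miR-107-3p (0.756), miR-10b-3p (0.745) and miR-345-5p (0.742). For miR-222-3p they were let-7b-3p (0.846), miR-3431-5p (0.736), miR-345-3p (0.734), miR-92a-5p (0.729) and the candidate novel_586 (0.709). For miR-221-5p they were miR-29a-5p (0.847), miR-101-3p (0.821), miR-342-3p (0.813), miR-29b-3p (0.801) and miR-126-3p (0.769). The lists held none of the 3 members themselves, and miR-222-3p ranked 123 of 299 by its r with miR-221-3p.

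Other miRNAs known to act on the same targets were set beside the cluster. The lists were drawn up by miRNA name, so both arms were taken where listed. Which arm acts on the target was not tested. Of 6 listed p27 regulators, miR-24, miR-148a and miR-196a were present, as 5 arms that were all tested, and miR-152, miR-181a and miR-196b had no row under these names in the tables used here. From May to September, 2 of the 5 were called higher and none lower, where 9.67% of all miRNAs were called higher. Their median log2 fold change was 0.60 against 0.07 for all miRNAs. miR-148a-3p, also a regulator of DNA methyltransferases, averaged 65424 ± 1934 TPM in May and 116124 ± 26347 in September (SD, n = 2 each), with a TMM log2 fold change of 1.36 (SE 0.35, edgeR adjusted p = 0.0110). miR-24-5p, the minor arm of miR-24, was at 9.27 ± 2.28 and 14.8 ± 5.28 TPM, with a TMM log2 fold change of 1.18 (SE 0.34, edgeR adjusted p = 0.0191). The others had 0.60 for miR-196a, 0.30 for miR-148a-5p and 0.11 for miR-24-3p. The last is the abundant arm of miR-24, at a mean of 5703 TPM over the 12 libraries.

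Library totals lowered all miRNAs together at this step, by the shift of the median given above, and both calls were lost, at 0.83 for miR-148a-3p (edgeR adjusted p = 0.0367) and 0.67 for miR-24-5p (edgeR adjusted p = 0.133). Relative to the median, miR-148a-3p was at 1.299 with TMM and 1.283 with library totals, and miR-24-5p at 1.11 and 1.12. The call of miR-148a-3p was lost without either May library or without the female September library, and that of miR-24-5p without either May library or the male September library. From May to catagen, where 27 of the 300 miRNAs were called higher, miR-24-5p was among them (1.47, SE 0.31, edgeR adjusted p = 0.00323). It kept this call in 11 of 12 fits that left out 1 library, all but the one without the male May library, and lost it with library totals (0.92). miR-148a-3p had 0.996 there (edgeR adjusted p = 0.0229), just under 2-fold. It ran from 0.78 to 1.16 over the fits that left out 1 library. With library totals it was at 0.42 (edgeR adjusted p = 0.187). None of the 5 was called in the other 4 phase comparisons. From telogen to May, though, miR-24-5p had -1.001 (edgeR adjusted p = 0.0610), and it was called lower with DESeq2 (-1.06, DESeq2 adjusted p = 0.0213) and without the male March library. miR-148a-3p was called higher from telogen to September without the female February library.

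Of 4 listed KIT regulators, all were present, as 5 arms that were all tested. From May to September, 2 of the 5 were called lower and none higher, where 8.67% of all miRNAs were called lower. Their median log2 fold change was -0.52. miR-193b-3p, which is known as a growth-restraining miRNA, averaged 633 ± 42.2 TPM in May and 197 ± 71.0 in September (SD, n = 2 each), with a TMM log2 fold change of -1.14 (SE 0.28, edgeR adjusted p = 0.00859). miR-494 averaged 193.4 ± 34.1 and 40.0 ± 13.9 TPM, with -1.75 (SE 0.60, edgeR adjusted p = 0.0395). miR-34a, a target of p53, had -0.52 (edgeR adjusted p = 0.0536), miR-193a had 0.72 and miR-193b-5p had 0.61, none of them past the rule.

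With library totals the values were -1.68 for miR-193b-3p (edgeR adjusted p = 0.00217) and -2.27 for miR-494 (edgeR adjusted p = 0.0207), and miR-34a was called too (-1.06, edgeR adjusted p = 0.00382). Since that scaling lowered all miRNAs together, these lower values are no sign of stability. Relative to the median, TMM and library totals gave -1.21 and -1.23 for miR-193b-3p, -1.82 under both for miR-494, and -0.59 and -0.60 for miR-34a. Left out 1 library at a time, miR-193b-3p lost its call without the male September library, and miR-494 was called in 6 of 12 fits. It lost its call without either May library, either September library, the male November library or the female December library. From May to catagen, where 23 of the 300 miRNAs were called lower, miR-494 was among them (-2.33, SE 0.49, edgeR adjusted p = 0.00322) in all 12 such fits, and miR-193b-3p had -0.94 (edgeR adjusted p = 0.00756), just under 2-fold. The latter was called in 3 of 12 such fits and with library totals (-1.49, edgeR adjusted p = 0.000915). None of the 5 was called in the other 4 phase comparisons. From catagen to telogen, though, miR-494 had 1.10 (edgeR adjusted p = 0.0625), and it was called higher with DESeq2 (1.18, DESeq2 adjusted p = 0.0148), with RLE (1.17, edgeR adjusted p = 0.0447) and with library totals (1.53, edgeR adjusted p = 0.0265). It was also called there without the female February library and without the female March library, and it was at 0.51 without the male March library. Without that library, both miR-494 and miR-193b-3p were called higher from telogen to May. The melanocyte list, whose cells carry KIT, summed to 71.3 to 185 TPM in May, 92.0 to 108 in September and 58.4 to 95.1 in catagen, and its part in these values was not tested.

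**Figure D5:**
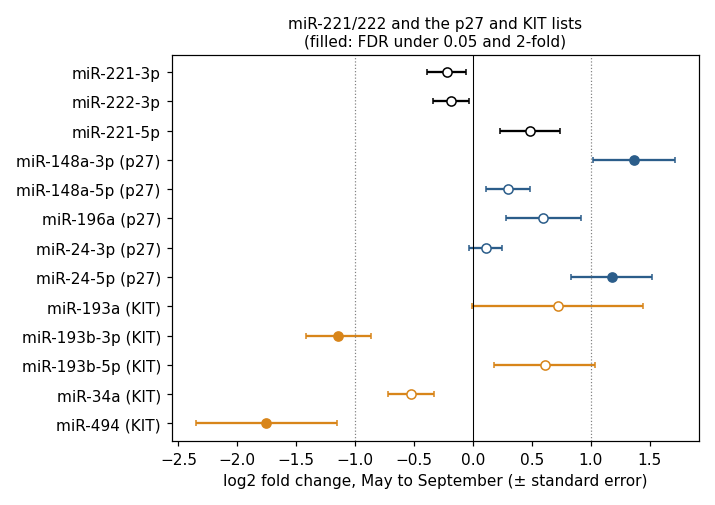
Log2 fold change from May to September with its standard error (TMM, edgeR). The 3 members are in black, the arms of the listed p27 regulators in blue and those of the KIT regulators in orange, minor arms included. Filled points passed an adjusted p of 0.05 and 2-fold, and dotted lines mark 2-fold. miR-148a-3p (1.36) and miR-24-5p (1.18) rose and miR-193b-3p (-1.14) and miR-494 (-1.75) fell, while the members lie between -0.22 and 0.49.

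The cluster is X-linked in mammals, so the sexes were compared in a fit that held month as a factor. The female minus male difference in log2 CPM was 0.03 for miR-221-3p (SE 0.10, edgeR adjusted p = 0.942), 0.12 for miR-221-5p (SE 0.16, edgeR adjusted p = 0.842) and 0.09 for miR-222-3p (SE 0.10, edgeR adjusted p = 0.824). The female library was higher in 5, 4 and 4 of 6 months. The month-wise differences ran from -0.28 to 0.18 for miR-221-3p, from -0.51 to 0.50 for miR-221-5p and from -0.08 to 0.27 for miR-222-3p. An exact permutation test that flipped the signs over the 6 months, two-sided, gave p = 0.688, 0.563 and 0.156, where the smallest possible is 0.0313.

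No miRNA was called between the sexes by edgeR or DESeq2 (background 0%), and 34 of 300 had an unadjusted p under 0.05. Of 31 other listed X-linked names, 31 arms were in the tables and 28 were tested, with a median difference of 0.03 against 0.04 over all miRNAs and with 16 of 28 above 0. The largest were -0.50 for miR-363-3p, -0.49 for miR-223-5p, 0.37 for miR-374a-5p and 0.33 for miR-374b-5p, none of which passed the test.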

How the data were processed

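Per the labels and the paper's methods, SHFs were dissected from skin under a microscope, and small RNA libraries were made from total RNA and sequenced on an Illumina instrument. The authors mapped the reads to CHIR_2.0, used miREvo and mirDeep2 to identify miRNAs, and took their levels from Bowtie (0.12.9 in the submitters' processing notes). They deposited 1 count per miRNA and library, not normalized, for 376 miRNAs. The authors also deposited TPM, which was at most 0.005 away from the value recomputed from a count and its library total. How reads that match several miRNAs were assigned was not given in the sources used here, so the split between miR-221-3p and miR-222-3p, which share their seed, rests on the authors' mapping.

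Depth was 3135292 to 5788032 counts per library, so that counting error was small for the 3p arms and larger for miR-221-5p, which had at most 334 counts. Both libraries of each month differed by more than sampling noise, and all were kept as separate libraries.

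The analysis used edgeR 4.0.16 under R 4.3.3. Testing required more than 5 CPM in at least 2 libraries (300 miRNAs). After TMM scaling, glmQLFit and glmQLFTest were run in 1 fit of all 12 libraries with 4 groups, with 6 month groups for adjacent months, and with month and sex for the sex difference. A call needed an adjusted p (Benjamini-Hochberg over 300) under 0.05 and a 2-fold change, except for the test of any difference and for arm ratios, which needed the adjusted p alone. Standard errors are the log2 fold change over the square root of F. Log2 CPM used a prior count of 1. Arm ratios were log2 of counts plus 1 for hairpins with a mean count of at least 10 in both arms, tested with limma 3.58.1. Permutation tests of relations used SciPy 1.17.1 with 100000 resamples, and the exact permutation tests were run in R. The scripts were tested on simulated data. Alternatives were DESeq2 1.42.0, RLE scaling, library totals, no filter, only the groups compared, sex as a term, no minimum fold, another pseudocount and leaving out each library. The spread under other scalings and the TPM relations of miR-222-3p were alternatives chosen after seeing the data.

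The members, the p27, KIT and X-linked lists and the marker lists were chosen with earlier results of these data known. All members of the p27 and KIT lists, the 4 X-linked miRNAs with the largest sex difference, the 5 miRNAs most like each member and the neighbours in abundance were named. No sequences were used here, so that miRNAs of the same seed were not searched for.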

Additional observations from a re-analysis of the deposited data

Results flagged for a closer look

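A library that stands far from the others of its group was looked for in 32 sets of values with Dixon's criterion, which chance meets in about 1 in 20 sets, and 2 met it. The TPM of miR-222-3p was highest in the female library of May, at 364.57, among 6 female libraries of which the others lay between 242 and 272. The male library of May was also the highest of its sex. The TMM CPM of miR-221-5p was lowest in the female library of November, at 37.7, among 4 catagen libraries of which the others lay between 53.8 and 56.3.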

How the results depend on the processing

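No member was called in the phase, month or sex comparisons, so no call on them could be lost. Of 617 alternative values for 52 results on the 3 members, 613 stayed on the same side of the threshold. In the phase, month and sex comparisons that threshold mostly included the 2-fold change, which no member reached, so this count is no measure of stability. With library totals, both 3p arms had an edgeR adjusted p under 0.05 from May to September (0.0126 and 0.00441) and from May to catagen (0.00853 and 0.00772). So they did between the months May and September (0.00955 and 0.00761). These count as unchanged. With TMM and all 12 libraries, 1 adjusted p under 0.05 lacked the 2-fold change, for miR-222-3p from catagen to telogen (0.0385). It rose above 0.05 with DESeq2 (0.0588), RLE (0.113), library totals (0.782), no filter (0.0925), only these phases (0.0668) and in 9 of 12 fits without 1 library. These too count as unchanged. The 4 that newly passed were the test of any phase difference with library totals (adjusted p = 0.0169 for miR-221-3p and 0.00976 for miR-222-3p), miR-222-3p from catagen to telogen with no minimum fold (-0.32), and the relation of miR-221-3p with miR-222-3p in TPM (0.77). A further 56 values changed sign with neither value called, 12 of them with library totals. Leaving out each library called no member. With sex as a term, no call on a member changed. The labels give no replicate numbers, and the female and male libraries of a month were paired only in the sex comparison, through month. The cause of the differences between scalings was not tested.

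Counts of calls over all miRNAs moved by over 1.5 times in 31 of 170 alternatives. From telogen to May, 7 calls became 12 with DESeq2, 4 with library totals, 15 with sex as a term, 16 with no minimum fold, 0 with only these groups in the fit and 0 to 27 when 1 library was left out. From May to September, 55 became 102 with no minimum fold, 36 without the male May library and 27 without the female September library. From May to catagen, 50 became 82 with library totals, 111 with no minimum fold and 27 without the male May library. From telogen to September, 28 became 76 with no minimum fold, 18 with only these groups and 6 without the female September library. From catagen to telogen, 32 became 105 with no minimum fold, and the test of any phase difference, passed by 47.3% of 300 miRNAs, was passed by 94 without the male May library. From September to catagen, 0 became 1 with DESeq2, with RLE and without the male November or the male March library. Between months, DESeq2 made 7 calls from March to May against 0 and 10 from December to February against 4, and library totals made 79 from May to September against 52. The sex comparison had 1 call with no filter.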
